A study of Mus musculus with 30 samples.

Results

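Crem, Pde4b, Pde4d, Nr4a1, Nr4a2, Nr4a3, Sik1, Ppargc1a, Rgs2 and Fosl2 are 10 genes known, from one cell type or another, as targets of cyclic AMP (cAMP) and of the transcription factor CREB. They were picked by symbol from the 19057 genes with a named probe on the array, and where a gene had several probes the one of highest mean over the 30 arrays stood for it. The question was whether they show a trace of cAMP signalling after injection of exendin-4, whose receptor, Glp1r, signals through cAMP. A dim level of 7.18 (log2 signal) was set from the mode of all signals and the spread below it. Of the 10 genes, 9 lay above it in at least 3 arrays and were among the 13140 genes tested. Nr4a1 did not and was left out of the tests.

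RNA came from scraped mucosa of the jejunum (a piece of 2 cm) of male C57BL/6 mice of 11 to 12 weeks that had not been fasted. The labels name no genetic change, and every mouse had 1 injection into the peritoneal cavity. The injection was phosphate-buffered saline (PBS), exendin-4 (Ex-4, 10 nmol/kg), a peptide agonist of Glp1r, or human recombinant KGF/Fgf7 (1 mg/kg), a growth factor for epithelial cells that signals through a receptor tyrosine kinase. Tissue was collected after 1 h (3 mice per agent), 5 h (4 per agent) or 20 h (3 per agent), which gave 9 groups. The design is one of whole tissue: a scraping holds epithelium with varying amounts of stroma, immune cells and muscle, and in such samples fewer cells of a type and less RNA per cell cannot be told apart. Of 8 epithelial marker genes, 7 lay above the dim level on all 30 arrays, from 7.81 for Epcam to 14.94 for Lgals4, and the probe of Fabp2 on 0 arrays. Markers of other cells were present too. Summed up as a mean centred log2 signal over 15 smooth muscle genes, 4 arrays stood apart: 1.81 on PBS 1 h replicate 3, 1.82 on PBS 5 h replicate 3, 1.07 on Fgf7 5 h replicate 2 and 0.80 on Ex-4 5 h replicate 1. The other 26 arrays lay between -0.44 and 0.16.

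In the textbook pathway a Gs-coupled receptor such as Glp1r activates adenylyl cyclase, cAMP frees the catalytic subunits of protein kinase A, and these phosphorylate CREB bound at the cAMP response element (CRE) of its target genes. Several targets feed back on the pathway: a short form of Crem named ICER represses CRE-driven transcription, Pde4b and Pde4d encode phosphodiesterases that break down cAMP, and Sik1 encodes a kinase that keeps CREB's Crtc coactivators out of the nucleus. Many of these transcripts are known to peak early and to fade within hours. In mouse intestine Glp1r is known from enteric neurons and intraepithelial lymphocytes more than from absorptive cells.

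Promoter sequences show which of the genes carry CRE letters close to their start. The promoters of Crem, which was left out, and of Sik1, which had no entry, were not read. The counts below thus do not cover Crem and Sik1, whereas the shares of all promoters had no such omission. RefSeq (GRCm38.p6) windows of 300 bases, 250 before and 50 after a gene start, were read for 8 of the 10 genes, 11 promoters in all. The full palindrome TGACGTCA was in 0 of them, against 1.79% of all 32851 promoters of that length. The full or the short form (TGACG, or CGTCA on the opposite strand; a full site holds both short ones) was in 6 of the 11, 1 for each of 6 genes, against 20.8% of all promoters. Nr4a1, Nr4a2 and Nr4a3 held 4 short motifs each, Rgs2 held 2, Ppargc1a 1 and 1 of the 4 Pde4b promoters 1, whereas the windows of Pde4d and Fosl2 held 0. The promoters below are of Pde4b, the gene with a difference among the groups, and of 2 orphan nuclear receptor genes rich in the motif (Nr4a1 and Nr4a3). They are in lower case with the motifs in capitals. For Pde4b only the 1 window of 4 that holds a motif is shown. Whether the measured probe of Pde4b reads a transcript from that promoter was not tested.
Nr4a1, chr15:101266596-101266895, plus strand: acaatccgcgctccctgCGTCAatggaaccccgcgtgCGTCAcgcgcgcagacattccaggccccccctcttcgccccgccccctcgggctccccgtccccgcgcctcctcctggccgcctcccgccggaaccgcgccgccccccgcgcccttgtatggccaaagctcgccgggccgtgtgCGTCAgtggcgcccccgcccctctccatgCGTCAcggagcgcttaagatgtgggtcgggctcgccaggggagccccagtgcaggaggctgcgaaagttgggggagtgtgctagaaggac
Nr4a3, chr4:48045055-48045354, plus strand: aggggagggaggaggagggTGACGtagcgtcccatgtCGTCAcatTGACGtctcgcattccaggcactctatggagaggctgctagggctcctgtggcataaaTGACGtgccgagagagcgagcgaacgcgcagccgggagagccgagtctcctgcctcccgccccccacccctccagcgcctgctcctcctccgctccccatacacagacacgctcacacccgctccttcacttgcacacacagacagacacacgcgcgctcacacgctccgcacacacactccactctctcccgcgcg
Pde4b, chr4:102421305-102421604, plus strand: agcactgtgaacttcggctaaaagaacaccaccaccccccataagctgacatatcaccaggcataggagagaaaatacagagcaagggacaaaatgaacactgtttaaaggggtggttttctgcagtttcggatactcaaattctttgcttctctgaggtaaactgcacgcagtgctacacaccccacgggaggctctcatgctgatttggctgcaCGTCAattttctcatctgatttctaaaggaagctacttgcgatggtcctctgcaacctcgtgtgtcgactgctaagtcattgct
Counted so that -1 is the base before the gene start, the motifs begin at -233, -213, -69 and -40 in Nr4a1, at -231, -213, -205 and -147 in Nr4a3, and at -34 in Pde4b. A match describes these letters and is not a measured binding site.

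The upstream parts of the pathway were measured unevenly. Glp1r had 1 probe, with a mean of 7.04 and a range of 6.95 to 7.18, above the dim level in 0 of 30 arrays, so its transcript was not measured above background in these scrapings. Glp2r, the receptor of glucagon-like peptide 2, lay above it in 24 arrays (mean 7.44) and Vipr1, the receptor of vasoactive intestinal peptide, in 30 (mean 8.19). Gnas, which encodes the stimulatory G protein subunit, had a mean of 10.17 and ranged from 9.81 to 10.52. Its differences from PBS were -0.12, -0.20 and -0.10 after Ex-4 and -0.21, -0.22 and -0.11 after Fgf7 (log2, at 1, 5 and 20 h), and none passed the test.

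Most of the 10 genes were dim. Crem (mean log2 signal 7.30), Nr4a2 (7.31), Sik1 (7.30), Rgs2 (7.27), Pde4d (7.38) and Nr4a3 (7.14) lay near the dim level, Nr4a3 above it in only 10 of 30 arrays. The 3 Nr4a genes encode orphan nuclear receptors that many stimuli induce early, and Rgs2 encodes an inhibitor of G protein signalling. Pde4b, at 7.72 on average and 7.41 to 8.18 over the arrays, was clear of it on every array. Ppargc1a, a coactivator of mitochondrial genes, and Fosl2, a partner of Jun proteins in AP-1, were bright, with means of 10.12 and 10.65. Nr4a1 ranged from 6.80 to 7.11, below the dim level on all 30 arrays and in every group. Signal near the background compresses fold changes, so that the folds of the dim genes given here understate any change in RNA. These levels belong to single probes, and probes of different genes differ in sensitivity, so their order is no order of abundance.

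**Figure D1:**
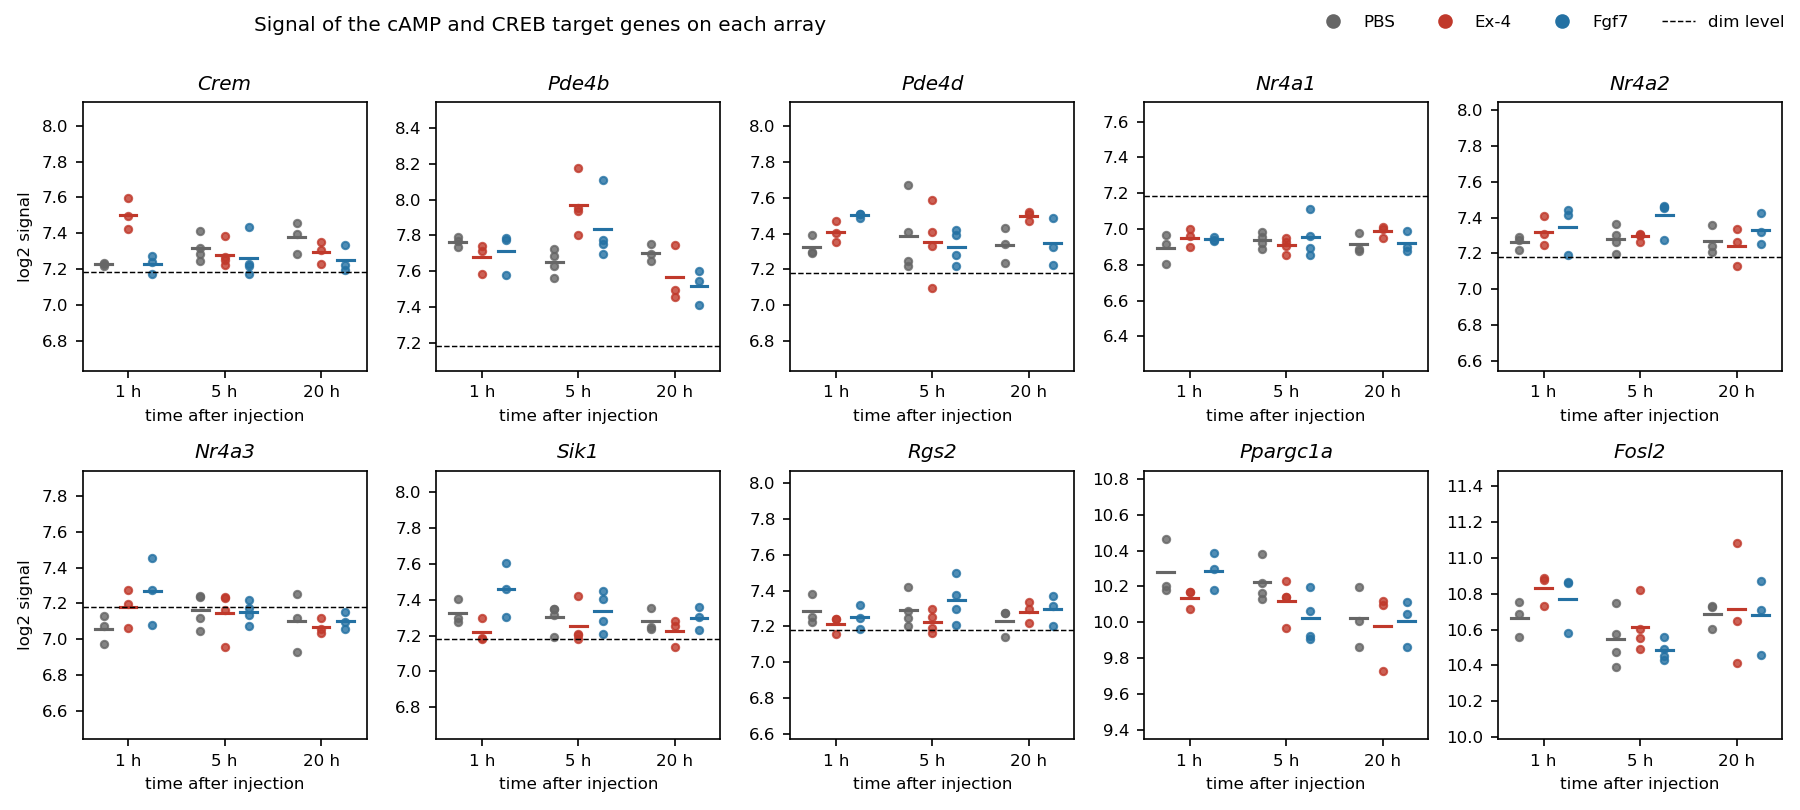
Log2 signal of each of the 10 genes on every array, by time after injection and agent; points are arrays, bars group means, the dashed line is the dim level of 7.18, and each vertical axis spans the same 1.5 log2 units. The groups of most genes overlap; Crem on the Ex-4 arrays at 1 h and Pde4b on the Ex-4 arrays at 5 h lie above all PBS arrays of the same time.

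One hour after Ex-4, the gene of this set with the smallest p was Crem, whose products act as activators or repressors at CREs. The 3 Ex-4 arrays read 7.49, 7.42 and 7.59, against 7.22, 7.23 and 7.23 after PBS and 7.27, 7.24 and 7.17 after Fgf7. Every Ex-4 array was above every PBS and every Fgf7 array. The difference from PBS was 0.28 ± 0.07 on the log2 scale (SE, n = 3 per group), or 1.21-fold with a 95% interval of 1.10 to 1.33. Its unadjusted p of 0.000389 ranked 2nd of the 13140 genes, but the p adjusted over all genes was 1 in the limma fit, so the difference did not pass at 0.05. Against Fgf7 the difference was 0.28 ± 0.07 as well (unadjusted p = 0.000418, rank 10, adjusted p = 0.513). With the background mode subtracted from the signal, the difference from PBS became 0.90 (1.86-fold, adjusted p = 0.897).

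Crem has 7 probes, which did not all show this. In probe 2, counted by falling mean, the Ex-4 arrays read 7.44, 7.58 and 7.54, the PBS arrays 7.14, 7.11 and 7.02 and the Fgf7 arrays 7.24, 7.29 and 7.21. That is a difference from PBS of 0.43 ± 0.08 (unadjusted p = 1.435e-05, adjusted p = 0.308 over all probes). In probe 3 the Ex-4 arrays read 7.44, 7.55 and 7.38 against 7.31, 7.15 and 7.12 after PBS, a difference of 0.26 ± 0.08 (unadjusted p = 0.00311, adjusted p = 1). The Ex-4 arrays were thus above all PBS arrays in 3 of the 7 probes, and above all Fgf7 arrays in the same number. The other 4 probes differed from PBS by -0.08, -0.09, 0.05 and 0.06, and in 1 of them, probe 4, all Ex-4 arrays were below all PBS arrays. After PBS at 1 h the means of all 7 probes lay near or under the dim level. They were 7.23, 7.09 and 7.19 for probes 1 to 3 and 7.23 for probe 4, so the first 3 were not brighter than probe 4. Over the 30 arrays, probes 2 and 3 correlated with probe 1 with r = 0.564 and r = 0.501, and probes 4 and 5 with r = -0.28 and r = -0.243. The mean of all probes that passed the filter gave 0.16 in place of 0.28. Which transcripts of Crem each probe reads is not analysed here.

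**Figure D2:**
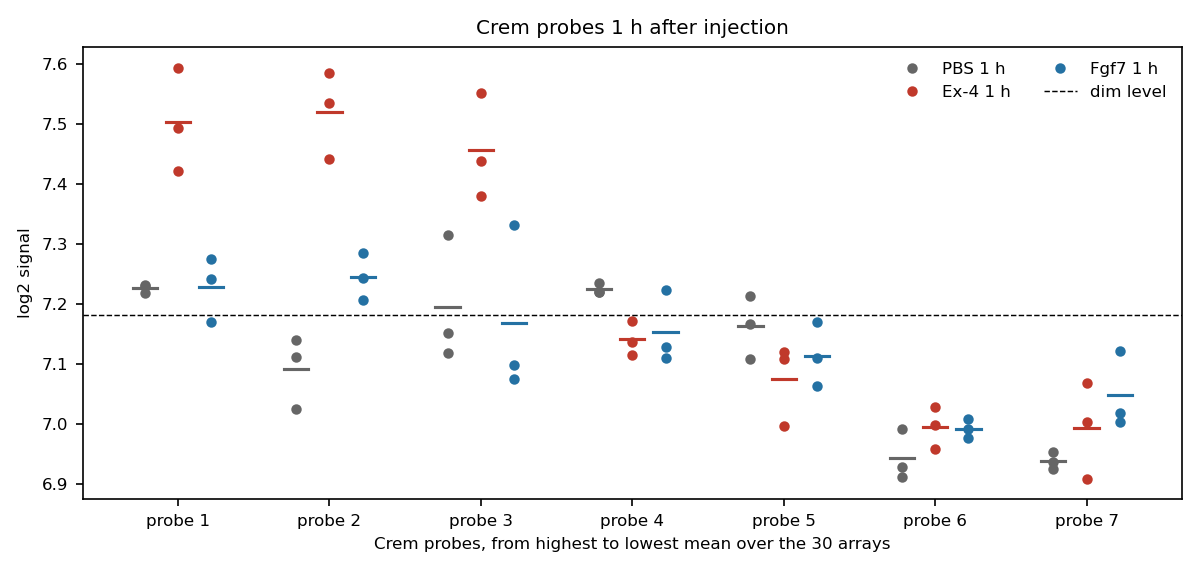
Log2 signal of the 7 Crem probes on the 9 arrays taken 1 h after injection, with probes ordered by their mean over the 30 arrays; points are arrays, bars group means, and the dashed line is the dim level. In the first 3 probes the Ex-4 arrays lie above all PBS and Fgf7 arrays. In the other 4 they do not. The PBS means of all 7 probes lie near or under the dim level.

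The other genes did not move with Crem in these arrays. A total of 0 of the 9 genes tested passed, where 0% of all genes did, and only Crem had an unadjusted p under 0.05, as did 2.91% of all genes. Ppargc1a read 10.07, 10.17 and 10.17 after Ex-4 and 10.18, 10.47 and 10.20 after PBS, a difference of -0.15 ± 0.11 (adjusted p = 1) without overlap. Groups without overlap were found for 2 of the 9 genes, Crem and Ppargc1a in opposite directions, and for 9.95% of all genes. Fosl2 (10.73 to 10.89 after Ex-4, 10.56 to 10.76 after PBS) and Nr4a3 (7.06 to 7.28 and 6.98 to 7.13) overlapped. Nr4a1, not measured above background, read 7.00, 6.90 and 6.96 after Ex-4 and 6.92, 6.80 and 6.97 after PBS. Differences from PBS were above 0 for 5 genes and below 0 for 4, with a median of 0.06 against 0.00 over all genes. The 95% intervals of the 9 genes lay within 0.776-fold and 1.34-fold of PBS on the deposited scale.

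Fgf7 at 1 h likewise left 0 of the 9 genes past the threshold, where 0.00761% of all genes did, which is 1 gene, the immediate-early gene Egr1. Nr4a3, whose product is an orphan nuclear receptor, read 7.46, 7.08 and 7.28 after Fgf7 and 7.13, 6.98 and 7.07 after PBS. The groups overlapped, and the difference of 0.21 ± 0.09 had an unadjusted p of 0.0261 and an adjusted p of 0.635. It was the 1 gene of the 9 with an unadjusted p under 0.05, where 7.59% of all genes had one. Pde4d, at 7.51, 7.49 and 7.51 after Fgf7 and 7.29, 7.39 and 7.30 after PBS, was the 1 gene whose groups did not overlap (14.9% of all genes). Its difference was 0.18 ± 0.10 (adjusted p = 0.686), and its second probe, of nearly the same mean, differed by -0.12 in the other direction and correlated with the first with r = -0.355. The remaining 2 probes that passed the filter, both dimmer, differed by 0.05 and 0.08. Crem differed by 0.00 ± 0.07 after Fgf7. Over the 9 genes, 7 differences were above 0, with a median of 0.09.

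A direct comparison of both agents at 1 h set Sik1 beside Crem. Sik1 read 7.30, 7.18 and 7.18 after Ex-4 and 7.61, 7.31 and 7.46 after Fgf7, with PBS between at 7.30, 7.27 and 7.40. All Ex-4 arrays were below all Fgf7 arrays, by 0.24 ± 0.08 (unadjusted p = 0.00554, adjusted p = 0.791). Crem and Sik1 stood on opposite sides in the same arrays. Between the agents, 0 of the 9 genes passed (0.00761% of all genes), 2 had an unadjusted p under 0.05 (5.75%), and 4 did not overlap (13.4%): Crem was higher after Ex-4, and Sik1, Pde4d and Ppargc1a were lower.

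At 5 h after Ex-4 the leading gene was Pde4b, and Crem was back at the level of PBS. Pde4b read 7.95, 7.80, 8.18 and 7.93 after Ex-4, 7.63, 7.56, 7.69 and 7.73 after PBS, and 7.70, 8.11, 7.77 and 7.75 after Fgf7. Every Ex-4 array was above every PBS array, while 1 Fgf7 array, replicate 2, reached the Ex-4 range. The difference from PBS was 0.32 ± 0.08 (SE, n = 4 per group), or 1.24-fold with a 95% interval of 1.10 to 1.40. It ranked 154th of all genes by p (0.000876) and did not pass, with an adjusted p of 0.0745 in the limma fit. Without Ex-4 replicate 2, the lowest of its group, the adjusted p was 0.0378. With each of the 8 Ex-4 and PBS arrays at 5 h left out in turn, the adjusted p ran from 0.0378 to 0.357. With background subtracted the difference was 0.64 (1.55-fold, adjusted p = 0.126). The other 3 Pde4b probes lay above the dim level in at most 1 array and could not show a change.

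Crem at 5 h read 7.25, 7.27, 7.39 and 7.22 after Ex-4 and 7.29, 7.24, 7.32 and 7.41 after PBS, which overlap, and differed by -0.03 ± 0.06. Among the 9 genes 0 passed at this time (0.906% of all genes), 1 had an unadjusted p under 0.05 (11.3%) and 1 had groups without overlap (5.89%), Pde4b each time. Nr4a2 (difference 0.01), Nr4a3 (-0.01), Pde4d (-0.03), Sik1 (-0.05), Rgs2 (-0.06), Fosl2 (0.07) and Ppargc1a (-0.10) overlapped PBS. Intervals of the 9 genes ran from 0.815-fold to 1.40-fold of PBS.

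At 5 h after Fgf7, 0 of the 9 genes passed (0.213% of all genes), and 3 had an unadjusted p under 0.05 (6.86%). These were Ppargc1a, with 9.91, 9.92, 10.06 and 10.20 against 10.16, 10.22, 10.13 and 10.38 after PBS (difference -0.20 ± 0.09, adjusted p = 0.680), Pde4b (0.18 ± 0.08, adjusted p = 0.682) and Nr4a2. Nr4a2, another orphan nuclear receptor gene, read 7.46, 7.28, 7.46 and 7.46 after Fgf7 and 7.30, 7.26, 7.36 and 7.20 after PBS, a difference of 0.13 ± 0.06 (adjusted p = 0.696). All 3 overlapped PBS, as did the rest, so that 0 of the 9 genes had groups without overlap (3.24% of all genes). Without Fgf7 replicate 2 the Pde4b difference was 0.09. Between Ex-4 and Fgf7 at 5 h, 0 of 9 genes passed (0.556%), 0 had an unadjusted p under 0.05 (9.7%) and 0 had groups without overlap (5.08%). Pde4b differed between the agents by 0.13 ± 0.08 (adjusted p = 0.669), so a response particular to Ex-4 was not shown.

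At 20 h the early differences were not seen. After Ex-4 none of the 9 genes (0) passed, where 2.3% of all genes did, and 0 had an unadjusted p under 0.05 (12.2%). Crem read 7.35, 7.23 and 7.31 after Ex-4 and 7.39, 7.46 and 7.28 after PBS, and Pde4b 7.46, 7.50 and 7.75 against 7.66, 7.70 and 7.75. In both the groups overlapped and the Ex-4 mean was the lower one, by 0.08 and 0.14. Pde4d was the 1 gene without overlap (15.1% of all genes), at 7.51, 7.52 and 7.47 after Ex-4 and 7.43, 7.23 and 7.34 after PBS (0.17 ± 0.10, adjusted p = 0.580), while its other probes that passed the filter differed by -0.05 to 0.00.

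Fgf7 at 20 h gave the same count: 0 of the 9 genes passed (0.0457% of all genes) and 0 had an unadjusted p under 0.05 (4.03%). Pde4b, at 7.55, 7.41 and 7.60, lay below all PBS arrays, as the 1 gene without overlap (9.35%), by 0.18 ± 0.10 (adjusted p = 0.9995). Ex-4 and Fgf7 differed at 20 h in 0 of the 9 genes (1.76% of all genes passed), with 0 at an unadjusted p under 0.05 (9.72%) and 0 without overlap (13.6%).

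**Figure D3:**
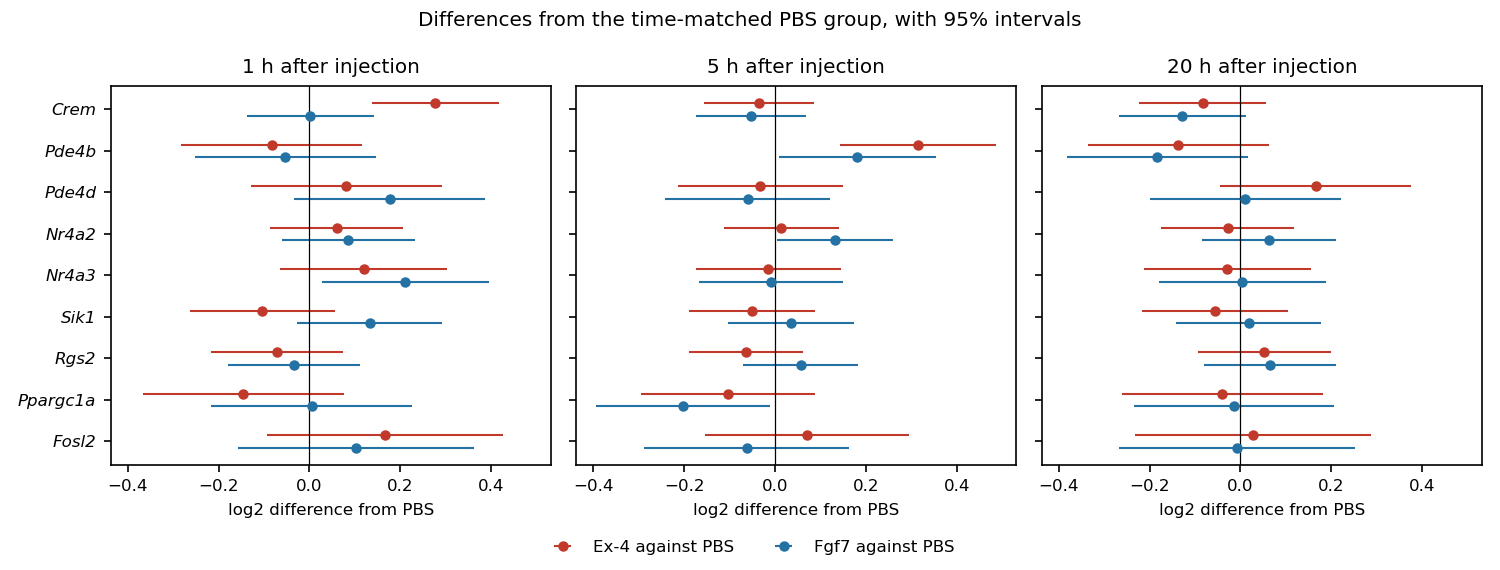
Log2 difference from the time-matched PBS group for the 9 genes tested, at 1, 5 and 20 h; points are fitted differences and lines their 95% intervals. The Ex-4 intervals of Crem at 1 h and of Pde4b at 5 h lie wholly above 0, without adjustment for the number of genes. All other intervals after Ex-4 include 0. The Fgf7 intervals of Nr4a3 at 1 h and of Pde4b and Nr4a2 at 5 h also lie wholly above 0, and that of Ppargc1a at 5 h wholly below.

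Whether the Ex-4 difference itself changed with time was tested as a difference of differences. For Crem it was smaller at 5 h than at 1 h by 0.31 ± 0.09 (unadjusted p = 0.00186, adjusted p = 0.321), and smaller at 20 h than at 1 h by 0.36 ± 0.10 (unadjusted p = 0.000913, adjusted p = 0.114). For Pde4b it was larger at 5 h than at 1 h by 0.40 ± 0.13 (adjusted p = 0.385) and smaller at 20 h than at 5 h by 0.45 ± 0.13 (adjusted p = 0.0955). None of the 9 genes passed in these contrasts, in which 0.129% (5 against 1 h), 0.951% (20 against 5 h) and 0.51% (20 against 1 h) of all genes did. An unadjusted p under 0.05 was found for 2, 1 and 1 of the 9 genes, and for 7.1%, 10.4% and 6.85% of all genes. For the Fgf7 difference the counts that passed were 0 of 9 in each contrast, against 0%, 0% and 0.0228% of all genes. Here 0, 1 and 0 genes had an unadjusted p under 0.05, against 7.25%, 3.68% and 4.08%, and the 1 gene was Pde4b (-0.36 ± 0.13 from 5 to 20 h, adjusted p = 1).

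After PBS alone, 0 of the 9 genes passed between any of the times, where 0% of all genes did in each of the 3 contrasts. Between 1 and 20 h, Crem (7.22 to 7.23 at 1 h, 7.28 to 7.46 at 20 h; 0.15 ± 0.07, adjusted p = 0.9998) and Ppargc1a (10.18 to 10.47 and 9.86 to 10.19; -0.26 ± 0.11, adjusted p = 0.9998) had an unadjusted p under 0.05. These are 2 of 9 genes, where 4.27% of all genes had one; between 1 and 5 h it was 0 of 9 against 5.49%, and between 5 and 20 h 0 of 9 against 4.33%. The PBS level of Crem was lowest and least spread at 1 h, with an SD of 0.01 against 0.07 at 5 h and 0.09 at 20 h. The lowest Ex-4 array at 1 h (7.42) was above the highest PBS array at 5 h (7.41) and below the highest at 20 h (7.46).

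Tested for any difference among the 9 groups, 1 of the 9 genes passed, Pde4b (F-test in limma, adjusted p = 0.0300), where 5.93% of all genes did. Crem had an adjusted p of 0.0938 and Ppargc1a of 0.189, and these 3 genes had an unadjusted p under 0.05, as did 19.4% of all genes. For Ex-4 against PBS at any time 0 of 9 genes passed (2.12% of all genes) and 2 had an unadjusted p under 0.05 (12.4%), Crem (adjusted p = 0.0890) and Pde4b (adjusted p = 0.113). For Fgf7 at any time 0 of 9 passed (0.145%) and 0 had an unadjusted p under 0.05 (6.85%). The call of Pde4b held when 23 of the 30 arrays were left out one at a time, with adjusted p values from 0.0130 to 0.142 over all alternatives tried. Group means of Pde4b spanned 0.45, against a spread within groups of 0.12 (SD), and those of Crem 0.28 against 0.08. For the other 7 genes tested, the span of the group means was between 0.13 and 0.35 and the spread within groups between 0.08 and 0.16.

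The genes most like Pde4b over the 30 arrays were Celf2 (Pearson's r = 0.838), Laptm5, a lysosomal protein gene of leukocytes (0.824), and Ppm1m (0.824). Within groups, after removal of group means, r was 0.76, 0.708 and 0.628. The points share the normalization and the mixed tissue, so these are descriptions. Against PBS at 5 h, Laptm5 differed by 0.31 ± 0.14 after Ex-4 (adjusted p = 0.382), Celf2 by 0.23 ± 0.10 (adjusted p = 0.363) and Ppm1m by 0.26 ± 0.08 (adjusted p = 0.154), about as much as Pde4b. The Fgf7 array at 5 h with the high Pde4b value, replicate 2, also had the highest Laptm5 value of the 30.

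Summed levels of some marker lists moved with Pde4b and others did not. Its correlation over the arrays was r = 0.587 with 4 tested B and plasma cell markers of 7 listed, r = 0.606 with 6 of 6 fibroblast markers and r = 0.314 with 15 smooth muscle markers. It was 0.421 with endothelium, 0.121 with nerve and glia, 0.084 with T cells and intraepithelial lymphocytes (4 of 8 markers tested), -0.003 with epithelium and -0.245 with enteroendocrine cells. The B and plasma cell mean ran from -0.36 to 0.15 on the PBS arrays and from -0.07 to 0.34 on the Ex-4 arrays at 5 h, and from -0.25 to 0.48 after Fgf7. The fibroblast mean ran from 0.00 to 0.22, from 0.06 to 0.20 and from -0.15 to 0.67. With the B and plasma cell mean as a covariate, the difference of Pde4b at 5 h after Ex-4 was 0.26 (adjusted p = 0.196), and with the fibroblast mean 0.30 (adjusted p = 0.0630). In the test over the 9 groups, Pde4b did not pass with either covariate (adjusted p = 0.142 and 0.141). Both covariates were chosen after seeing the data, and their part in the result beyond these values was not tested. Crem did not follow these lists, with r between -0.241 and 0.080 for the 8 lists of cell type markers.

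**Figure D4:**
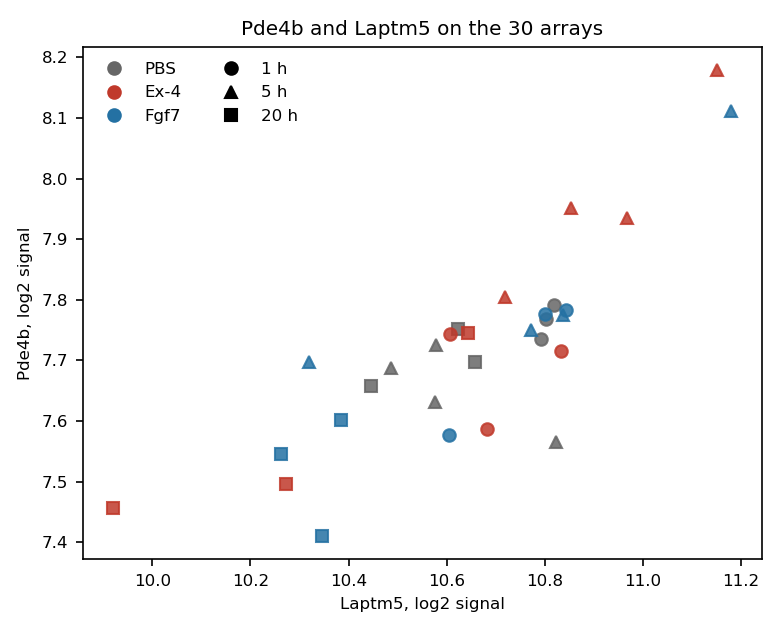
Log2 signal of Pde4b against that of Laptm5, a gene of leukocytes, on the 30 arrays; colours are agents and shapes times after injection. Arrays high in Laptm5 are high in Pde4b (r = 0.824), and the 2 highest arrays come from the Ex-4 and the Fgf7 groups at 5 h.

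The 9 genes did not vary together. Of their 36 pairwise correlations over the 30 arrays, 12 were below 0, the median was 0.033 and the range -0.276 to 0.428. Crem's closest genes were Plekho1 (r = 0.573), Ppp4r1l-ps (0.556) and Allc (0.538), Sik1's Fam189b (0.699), Olfr503 (0.641) and Fgr (0.638). Fosl2 was closest to Sema4b (0.812), N4bp1 (0.704) and Bfar (0.690), and Ppargc1a to 1700109H08Rik (0.721), Ddhd1 (0.711) and Tent5a (0.696). The bright pair Ppargc1a and Fosl2 had r = 0.351, which was 0.744 within groups. For the dim genes, r also reflects noise near the background, as with Nr4a2 (highest 0.631, Kif17), Nr4a3 (0.673, Tbk1), Rgs2 (0.679, Naa80) and Pde4d (0.779, 5730460C07Rik).

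Other genes of the pathway were taken from lists written from general knowledge, but with earlier results of these data known. None of 9 receptors, 13 G protein subunits and cyclases, 16 genes of protein kinase A, its anchors and Epac or 8 other phosphodiesterases passed against PBS at any time. The largest shift by p among the cyclases was Adcy9, at 7.90 after Ex-4 against 8.17 after PBS at 5 h (-0.28 ± 0.09, adjusted p = 0.186). At 5 h after Ex-4, 8 of the 9 receptors had differences above 0, with a median of 0.05, and so had 8 of 9 after Fgf7, against the same PBS arrays. Of all genes, 50.9% had differences above 0 in each comparison. Apart from Vipr1, the tested receptors were dim, with means of 7.09 to 7.44. Of 25 other CREB targets, 3, 8 and 6 had an unadjusted p under 0.05 at 1, 5 and 20 h after Ex-4, and 5, 0 and 0 after Fgf7. The shares of all genes were 2.91%, 11.3% and 12.2% after Ex-4 and 7.59%, 6.86% and 4.03% after Fgf7. The counts thus stood above their background share at 1, 5 and 20 h after Ex-4 and at 1 h after Fgf7. At 5 and 20 h after Fgf7 they stood below it. Because the list was chosen with earlier results known, these counts cannot show that CREB targets responded more than other genes. None passed at 5 h after Ex-4, 12 of the 25 differences there were above 0 and the median was 0.00. The smallest p there was that of Sst, the somatostatin gene, at 11.91 against 11.58 (0.33 ± 0.11, adjusted p = 0.162). At 1 h after Ex-4 the smallest p in that list belonged to Gadd45b, a stress-induced gene, at 8.18 against 7.86 (0.32 ± 0.12, adjusted p = 1), and 13 of the 25 differences were above 0.

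The pathway genes that did pass against PBS did so 20 h after Ex-4, and each fell. Creb3l3, which encodes a membrane-bound factor of the CREB family that acts in lipid metabolism, read 11.96, 12.10 and 11.93 after Ex-4 and 12.27, 12.32 and 12.56 after PBS, 1.31-fold lower (-0.38 ± 0.10, adjusted p = 0.0283). It was 1 of 13 genes in its list. Gadd45a, a DNA damage and growth arrest gene, read 10.74, 10.64 and 10.78 against 11.15, 11.07 and 11.02, 1.28-fold lower (-0.36 ± 0.09, adjusted p = 0.0320). Dusp4, a phosphatase of MAP kinases, read 7.79, 7.78 and 7.83 against 8.01, 8.17 and 8.17, 1.25-fold lower (-0.32 ± 0.08, adjusted p = 0.0337). Gadd45a and Dusp4 were 2 of the 25 other targets, where 2.3% of all genes passed. None of the 3 had groups that overlapped, as was so for 15.1% of all genes. Since the 3 were picked for passing on these same arrays, this adds no support. Each lost its call when some single arrays were left out. Creb3l3 passed in 2 of 6 such limma fits, with adjusted p values up to 0.203. Gadd45a and Dusp4 passed in 1 of 6, with adjusted p values up to 0.125 and 0.161. With the mean of its probes Dusp4 differed by -0.14 (adjusted p = 0.318). Marker lists at 20 h were compared by their ranges and not tested. The mean of 8 enteroendocrine markers ran from -0.12 to -0.03 on the Ex-4 arrays, below all PBS arrays (-0.01 to 0.09). That of 4 tested T cell and intraepithelial lymphocyte markers of 8 listed ran from -0.28 to -0.19, against -0.20 to 0.29, which overlap. Cd8a and Gzmb of this T cell list lay above the dim level on 0 arrays. The remaining lists overlapped PBS as well. The part of cell types in the lower values of the 3 genes was not tested.

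Among the 9 groups, 4 of the 25 other targets differed: Per1, Gadd45a, Pck1 and Rgs1 (adjusted p = 0.000255, 0.00207, 0.0215 and 0.0328), beside Creb3l3 (0.00937), where 5.93% of all genes did. Per1 and Gadd45a passed under all 42 alternatives and Creb3l3 under 40. Pck1 passed under 37, with an adjusted p of 0.106 after background subtraction, and Rgs1 under 29 (19 of the 30 that left out 1 array), with adjusted p values up to 0.0866. Per1, a clock gene with CRE-driven induction, had means of 9.78, 9.27 and 9.10 after PBS at 1, 5 and 20 h, 10.07, 9.58 and 8.43 after Ex-4 and 9.95, 9.27 and 8.61 after Fgf7. It did not pass against PBS at any time (differences after Ex-4 of 0.28, 0.31 and -0.67 with adjusted p = 1, 0.653 and 0.208), and every agent's mean was highest at 1 h and lowest at 20 h. Pck1, the gluconeogenic enzyme gene that is a CREB target in liver, had means of 9.25, 8.56 and 8.46 after PBS, 9.09, 8.25 and 7.87 after Ex-4 and 10.14, 8.47 and 8.14 after Fgf7. Egr1, which is not in the lists, differed from PBS at 1 h by 0.78 ± 0.24 after Ex-4 (adjusted p = 1) and rose by 1.99 ± 0.24 after Fgf7 (adjusted p = 0.000102). At 5 h the differences were 0.70 ± 0.20 after Ex-4 (adjusted p = 0.114) and 0.23 ± 0.20 after Fgf7 (adjusted p = 0.947). In the test against PBS at any time Egr1 passed for both agents (adjusted p = 0.0438 for Ex-4 and 0.000433 for Fgf7).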

How the data were processed

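Values are the log2 signals per probe and array deposited by the authors for Illumina mouse beadchips. Per the labels, Trizol was used for the RNA, which was checked on a Bioanalyzer and labelled with biotin by an Illumina TotalPrep-96 kit. No source used here names the normalization method; the values look quantile-normalized, since values of equal rank differed between arrays by an SD of at most 0.00218. A table of non-normalized intensities was not used, because its 60 columns carry plain numbers as names, which fit no sample label. The planned filter on detection p-values was therefore replaced by one on signal, and neqc could not be run. The number of arrays, and not a read depth, limits the precision.

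Of 45281 probes, 34885 carried 1 gene symbol in the platform annotation, 18 several and 10378 none. The dim level of 7.18 is the mode of all signals (7.02) plus a multiple of the SD on its lower side (0.0715). The multiple was chosen so that a normal distribution of that mode and SD exceeds the level with a share of 0.01. Probes above it in at least 3 arrays were kept (26437), and per gene the one with the highest mean (13140 genes). Group means were fitted with limma 3.58.1 in R 4.3.3, with 21 residual degrees of freedom and 4.613 more from the empirical Bayes prior. Benjamini-Hochberg adjustment ran over all 13140 genes in each comparison, and adjusted p-values under 0.05 passed. Folds are on the deposited scale. In the background-subtracted alternative, the mode was subtracted and an offset of 16 added before log2. The code was tested on simulated data. Python 3.11.15, pandas 2.3.3 and matplotlib 3.10.9 were used for promoters and plots.

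The 10 genes and the lists were chosen with earlier results of these data known. Named genes are the 10 genes, in each pathway list those that passed against PBS (up to 4 by smallest p, or the 1 with the smallest p), Glp1r, Gnas, Egr1, and for each tested gene the 3 genes most correlated with it. Other receptor genes, Per1, Pck1, Rgs1 and the marker genes were named after their values were seen. Alternatives left out each array in turn, fitted only the groups compared, left out the 4 arrays of high smooth muscle signal, used that signal as a covariate, added a replicate block, changed the filter, the probe rule or the variance model, and subtracted background. For a comparison between groups, only arrays of the groups it uses were left out. The B and plasma cell and the fibroblast covariates were added after seeing the data. By the labels replicates are different samples; p-values measure only the spread between these samples. The highest correlation of any 2 arrays was 0.99552, so no 2 arrays held identical values. A correlation cannot tell whether 2 arrays were made from the same RNA. Same-numbered arrays of different groups correlated in their deviations from group means with r from -0.183 to 0.651 (median 0.18), with 22 of 30 pairs over 0.1. The labels do not say whether the numbers pair the samples, and what these arrays share was not tested. The main fit leaves any such link out. With the replicate block, all genes called among the 9 groups rose from 779 to 1308.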

Additional observations from a re-analysis of the deposited data

Results flagged for a closer look

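In groups of 4 arrays, the highest or lowest array was set against the others by Dixon's ratio. Of 30 pairs of a gene and a 5 h group, 3 held an array that far from the rest; chance gives about 1 in 20 such groups.

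Nr4a2 read 7.2767 on Fgf7 5 h replicate 2, where the nearest of the other arrays read 7.456 (ratio 0.965). This array also had a high smooth muscle signal (1.07), whose part was not tested. Nr4a2 read 7.2645 on Ex-4 5 h replicate 2, with the nearest array at 7.3032 (ratio 0.864); this group spanned a very small range. Sik1 read 7.4202 on Ex-4 5 h replicate 1, against 7.2062 for the nearest array (ratio 0.885), and this array had a smooth muscle signal of 0.80, whose part was not tested.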

How the results depend on the processing

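Of the counts of tested genes that passed under alternative settings, 489 were unchanged and 13 moved, and none of the differences recomputed changed direction. For Ex-4 against PBS at 5 h the count ran from 0 to 1 as arrays were left out (1, Pde4b, without Ex-4 5 h replicate 2), and for the change of the Ex-4 difference from 5 to 20 h from 0 to 1 (1, Pde4b, without Ex-4 20 h replicate 3, adjusted p = 0.0283). For any difference among the 9 groups it ran from 0 to 2. It was 0 without Ex-4 20 h replicate 1 or 2, Fgf7 20 h replicate 1 or 2, or Ex-4 5 h replicate 1, 3 or 4, and 2 without Fgf7 5 h replicate 4. It was also 0 without the 4 arrays richest in smooth muscle signal and with the B and plasma cell or the fibroblast covariate. The cause was not tested. With the replicate block, the calls of these genes were as before (Pde4b at 5 h after Ex-4, 0.32 with adjusted p = 0.0646), while all genes called rose from 119 to 165 there and from 779 to 1308 among the 9 groups. Of the 3 pathway genes that fell at 20 h after Ex-4, with 19 alternatives for each gene, 21 alternative values in all kept the direction without passing. Signal near background limits Crem, Nr4a1, Nr4a2, Nr4a3, Sik1, Rgs2 and Pde4d. A detection p filter and neqc were not run.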
